A study of Rattus norvegicus with 30 samples.

Results

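The genes described here encode the proteins of the cytosolic ribosome, the particle that translates nuclear-encoded mRNA. Members were taken by name, as every gene with a single symbol in the array annotation that begins with Rpl or Rps and a number, or is Rplp0, Rplp1, Rplp2 or Rpsa, without pseudogenes and the Rps6k kinases. This gave 48 of the 14217 genes tested, each read by its brightest probe set on average over the arrays (on the log2 scale). Of the 48, 42 encode structural proteins, 29 of the large (60S) and 13 of the small (40S) subunit, and 6 are paralogs or similarly named genes (Rpl26l1, Rpl39l1, Rpl3l, Rpl7l1, Rps27l and Rps4y2). The measurements were 30 Affymetrix arrays of primary hepatocytes from male Sprague Dawley rats, bought frozen, plated on collagen under Matrigel and dosed once on day 3 of culture. The 6 groups of 5 arrays received vehicle (1% dimethyl sulfoxide, DMSO), 1 µM or 100 µM beta-naphthoflavone (BNF), each in DMSO, for 24 or 48 h. BNF is a synthetic flavone that activates the aryl hydrocarbon receptor (AhR), a ligand-activated transcription factor that induces Cyp1a1. Replicates were separate culture wells that the labels do not tie to animals, so p-values measure the spread between wells.

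Each ribosome holds 1 copy of most of its proteins, and cells make them in matched amounts. Their mRNAs are among the most abundant of a cell and carry a terminal oligopyrimidine (TOP) tract, a C at the transcription start followed by an unbroken run of C and T, through which mTORC1 and LARP1 govern their translation. Much of their regulation is therefore known to act on translation, which mRNA arrays do not read. Assembly of the proteins with ribosomal RNA in the nucleolus needs a separate set of genes, the ribosome biogenesis factors.

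To show what the members share at their starts, 30-base windows around the annotated transcription start are given from RefSeq (build GRCr8), 15 bases on each side of the boundary before the start, with the first 5 transcribed bases in capitals. Promoters were found for 43 of the 48 members. A TOP start, here C followed by at least 4 pyrimidines, was present in 12 of the 43 (27.9%), against 2.63% of all 33469 promoters in the table. All 12 were structural members (12 of 37), and none of the 6 paralogs or similarly named genes had one. Rpl14 and Rps15 are shown because the results below turn on them, Rplp0 as the base of the P stalk, and Rpl19 and Rpl37a for their long runs of 10 and 12 pyrimidines.
Rpl14: gggcgggccctctccCTTCTcgctgagcgc
Rps15: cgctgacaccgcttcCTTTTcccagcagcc
Rplp0: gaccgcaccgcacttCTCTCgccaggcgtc
Rpl19: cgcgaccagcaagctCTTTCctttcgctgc
Rpl37a: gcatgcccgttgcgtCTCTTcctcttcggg
These windows lie on the plus strand at chr8:129163605-129163634 (Rpl14), chr10:83519049-83519078 (Rpl19) and chr9:81748076-81748105 (Rpl37a), and on the minus strand at chr7:10068101-10068130 (Rps15) and chr12:46718376-46718405 (Rplp0).

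For contrast, the next windows are those of 3 genes outside the structural set and of 2 structural genes without a TOP start at the annotated base. Rpl7l1, Rpl13a and Rpl4 are shown because they passed the test in a comparison below, and Rps27l and Rpl26l1 as paralogs of structural genes.
Rpl7l1: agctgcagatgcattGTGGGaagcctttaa
Rps27l: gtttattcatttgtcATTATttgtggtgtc
Rpl26l1: aaatgtcatttccggGCCTGcgcacacacc
Rpl13a: cctcttcctttcctaGGCGGctgccgaaga
Rpl4: taagttcttccttttCCTGTgggagcagcc
They lie at chr9:21695703-21695732 (Rpl7l1, plus strand), chr8:76443643-76443672 (Rps27l, plus), chr10:17029014-17029043 (Rpl26l1, minus), chr1:104748899-104748928 (Rpl13a, minus) and chr8:73566462-73566491 (Rpl4, plus). In Rpl13a and Rpl4 the annotated start falls just after or inside a pyrimidine-rich stretch. When any C followed by 6 more pyrimidines within 20 bases of the start was counted, a search added after the first, 62.8% of the member promoters and 17.6% of all promoters held one.

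Other motifs were searched on both strands in the 300 bases from 250 before to 50 after the start, and a match is a description of letters only. The SP1 box GGGCGG was in 60.5% of member promoters and 33.1% of all promoters, the ETS core CCGGAA in 39.5% and 15%, and the YY1 core ATGGCG in 39.5% and 9.98%. The E-box CACGTG was in 6.98% and 6.42%. The AhR response element TNGCGTG was in 5 of the 43 member promoters (11.6%), those of Rpl22, Rpl41, Rpl5, Rps24 and Rps28, and in 4.89% of all promoters. None of these 5 genes passed the test at either dose against vehicle at either time. Of all genes, 4.3% (1 µM) and 21.1% (100 µM) passed at 24 h and 0.809% and 17.4% at 48 h, and 5 genes are too few to set against these shares.

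The probe sets of 38 structural members were very bright, at or above the 98.83rd percentile of mean signal over all genes, and these 38 carry most of the measurements below. The dividing line at the 98th percentile was set after the values were seen. The lowest of the 38 was Rps15 with a mean deposited signal of 36410, and the highest Rps23, a protein of the decoding centre, with 75870. The remaining 4 structural members (Rpl28, Rpl30, Rpl39 and Rps13) had mean signals of 47.9 to 1811 on the single-symbol probe sets available, and nothing about those mRNAs is read from so low a signal. Signals of different probe sets are not compared as mRNA levels, since each probe set has its own response.

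The hepatocyte label was checked against markers. Of 15 hepatocyte markers 14 were measured, at a median of the 99.4th percentile of signal, while markers of Kupffer, stellate, endothelial and cholangiocyte cells and of lymphocytes had medians between the 12.61st and 47.74th percentile. Cyp1a1, the standard AhR target, rose 3.83-fold (1 µM) and 5.13-fold (100 µM) over vehicle by 24 h. By 48 h it was higher by 2.49-fold (1 µM) and 5.68-fold (100 µM) (limma, largest adjusted p = 0.000365, n = 5 per group). At 24 h its signal was 7573 to 15657 in vehicle, below the mean signal of every bright ribosomal protein probe set, and 51979 to 74157 at 100 µM, within their range. In the shared level of the bright members, replicate 2 at 100 µM and 24 h was the highest of its group. Replicate 1 at 100 µM and 48 h was the lowest of its group. The gap criterion described below did not flag the shared level of either array. They lay furthest from their group means, so values without them are also given. In RNA from bulk cultures, fewer cells of a type and less RNA per cell cannot be told apart.

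Almost no ribosomal protein gene passed the test at either dose. Calls were made at an adjusted p of 0.05 in limma over all 14217 genes. At 1 µM and 24 h, 0 of the 48 members passed, where 4.3% of all genes did. At that dose and time 2 members had an unadjusted p under 0.05, and 17.5% of all genes did. At 100 µM and 24 h, 2 members were higher (Rpl7l1 and Rpl14) and 0 lower, where 21.1% of all genes passed, 10.7% higher and 10.4% lower. There 4 members and 30.2% of all genes had an unadjusted p under 0.05. At 48 h, 0 members passed at 1 µM, where 0.809% of all genes did, with 6 members and 11.1% of all genes at an unadjusted p under 0.05. At 48 h and 100 µM, 1 member was higher (Rpl7l1) and 0 lower, where 17.4% of all genes passed, 8.79% higher and 8.62% lower, and 5 members and 27.6% of all genes were at an unadjusted p under 0.05.

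The absence of calls came with narrow intervals of deposited signal for the 38 bright structural members. Whether probe sets this bright read a change in mRNA in full was not tested, and the rise of Cyp1a1 began below their level. The standard errors of their log2 fold changes were 0.05 to 0.10. At 24 h their log2 fold changes against vehicle ran from -0.11 to 0.05 at 1 µM and from -0.05 to 0.17 at 100 µM. The 95% confidence bounds of all 38 lay within a 1.20-fold change at 1 µM and within 1.22-fold at 100 µM. At 48 h the changes ran from -0.25 to 0.06 at 1 µM and from -0.15 to 0.05 at 100 µM, with bounds within 1.37-fold and 1.23-fold. These are intervals for single genes and are not adjusted for the number of genes. The 4 dim structural members gave no such limits, with standard errors of 0.21 to 0.62 and bounds of up to 7.68-fold.

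**Figure D1:**
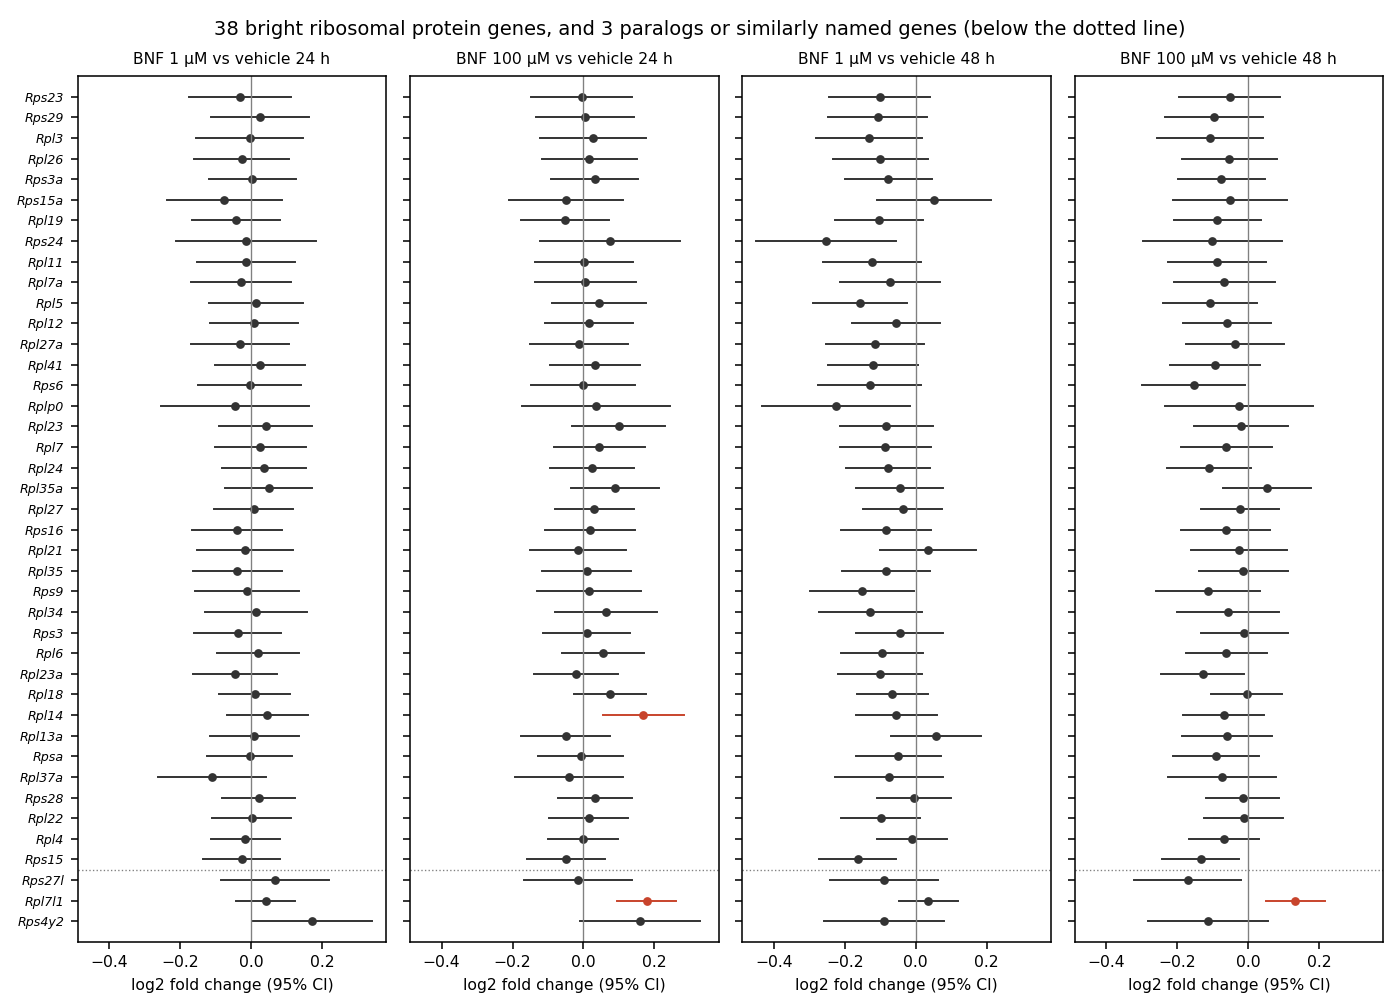
Log2 fold change against vehicle (x axis, point) with its 95% confidence interval (line) for the 38 bright structural ribosomal protein genes, sorted by signal, and for Rps27l, Rpl7l1 and Rps4y2 below the dotted line, with 5 arrays per group. Red marks an adjusted p under 0.05, reached by Rpl14 and Rpl7l1 at 100 µM and 24 h and by Rpl7l1 at 100 µM and 48 h.

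The median member lay close to the median of all genes at 24 h and a little below it at 48 h. The median log2 fold change of the 48 members was 0.002 at 1 µM and 0.02 at 100 µM at 24 h, beside 0.03 and 0.04 over all genes tested. At 48 h it was -0.09 at 1 µM and -0.06 at 100 µM, beside 0.02 and 0.02 over all genes. Members below 0 numbered 23 and 18 of 48 at 24 h (1 and 100 µM) and 41 and 42 of 48 at 48 h. Of all 14217 genes, 6271 and 6233 were below 0 at 24 h and 6250 and 6737 at 48 h. Most members moved together from array to array, as described below, so these counts are not of independent genes. The 1 and 100 µM values at a time share their vehicle arrays. With quantile normalization of the arrays the 48 h medians were 0.01 at 1 µM and 0.02 at 100 µM, so the small shift below 0 did not hold under that scaling. Quantile normalization gives every array the same distribution, with the 38 bright members at its top, and so can remove their shared shift. With median centring of each array the 48 h medians were -0.13 at 1 µM and -0.03 at 100 µM, beside -0.02 and 0.05 over all genes.

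The 2 subunits gave like values. At 100 µM the median of the 29 large subunit structural members was 0.02 at 24 h and -0.06 at 48 h, and that of the 13 small subunit members 0.005 and -0.08. At 1 µM and 48 h the medians were -0.08 and -0.10. No small subunit member passed the test in any of the 9 contrasts with 1 probe set per gene and the deposited scaling, with 3 at an unadjusted p under 0.05 at 1 µM and 48 h and 2 at 100 µM and 48 h. Under other settings Rpsa (mean of all probe sets) and Rps6 (arrays centred on the bright members) were called lower at 100 µM and 48 h. With quantile normalization Rps3a was called higher at 100 µM and 24 h, and Rps24 higher at 100 than at 1 µM at 48 h and higher at 48 than at 24 h in vehicle. Rpsa, a 40S protein also known as a laminin receptor precursor, was at -0.09 at 100 µM and 48 h on its brightest probe set (SE 0.06, limma adjusted p = 0.355). Its other probe sets gave -0.12 (SE 0.05, limma adjusted p = 0.151, mean signal 38978) and -0.43 (SE 0.14, limma adjusted p = 0.0448, mean signal 15506).

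Bright structural members with a TOP start at the annotated base (10 genes) had a median of 0.02 at 100 µM and 24 h and -0.06 at 48 h, and those without (24 genes) had 0.02 and -0.06.

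Rpl14, a 60S protein, was the only structural member that passed a test against vehicle. Its signal in the 5 vehicle arrays at 24 h was 45378, 46273, 47198, 45519 and 47910. In the 100 µM arrays at 24 h it was 49016, 57385, 54496, 48509 and 52125. Every 100 µM array was above every vehicle array, a separation that 14.8% of all genes showed in 1 direction or the other. The change was 0.17 on the log2 scale (SE 0.06, limma adjusted p = 0.0288, n = 5 per group). The 1 µM arrays at 24 h read 43832 to 50164 and overlapped the vehicle arrays (0.05, limma adjusted p over 0.05).

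At 48 h Rpl14 read 44284 to 50917 in vehicle, 39772 to 50073 at 1 µM and 41593 to 48263 at 100 µM, and the 3 groups overlapped. The log2 fold change at 100 µM was then -0.07, and the difference between the 100 µM effects at the 2 times was -0.24 (SE 0.08), which did not pass (limma adjusted p = 0.180). A second, dim Rpl14 probe set with a mean signal of 569 gave 0.25 at 100 µM and 24 h (SE 0.13, limma adjusted p = 0.233). The call at 24 h was lost without vehicle replicate 1, 2 or 4 or without 100 µM replicate 2 or 3 (limma adjusted p between 0.0513 and 0.103). Without 100 µM replicate 2, the array with the highest ribosomal protein signal of its group, the change was 0.13.

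Rpl7l1, whose product is related to the structural protein of Rpl7 and takes part in large subunit assembly in the nucleolus, was the member with the most calls. At 24 h its signal in vehicle was 9356, 9680, 10464, 10183 and 10289, and at 100 µM it was 10881, 11203, 11208, 11325 and 11878. The groups did not overlap, and the change was 0.18 (SE 0.04, limma adjusted p = 0.00154, n = 5 per group). At 48 h the vehicle arrays read 11368, 11739, 10469, 11627 and 11972, and the 100 µM arrays 11943, 12367, 12699, 12498 and 13167. These groups overlapped by 1 pair of arrays, and the change was 0.13 (SE 0.04, limma adjusted p = 0.0207).

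At 1 µM Rpl7l1 read 9706 to 10862 at 24 h and 11362 to 11913 at 48 h, overlapping vehicle at both times (0.04 and 0.04). It was also the only member that differed between the doses at 24 h, where 100 µM was higher by 0.14 (SE 0.04, limma adjusted p = 0.0334) and 7.72% of all genes passed, 3.14% higher and 4.57% lower. All 5 arrays at 100 µM were above those at 1 µM, and 7.58% of all genes were separated in this way, and 2 members and 18.7% of all genes had an unadjusted p under 0.05. That call was lost without 1 µM replicate 1, 2 or 3 or 100 µM replicate 3, 4 or 5 (limma adjusted p between 0.0517 and 0.117). At 48 h 0 members differed between the doses, where 14% of all genes did, and 1 member (Rpl7l1, 0.10) and 24.6% of all genes had an unadjusted p under 0.05. In vehicle cells Rpl7l1 was higher at 48 than at 24 h by 0.19 (SE 0.04, limma adjusted p = 0.000841).

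A second Rpl7l1 probe set, with a mean signal of 3794, did not show the difference with BNF. It gave 0.00 at 100 µM and 24 h (SE 0.06, limma adjusted p = 0.994) and 0.08 at 48 h (limma adjusted p = 0.476), but 0.26 between the vehicle times (limma adjusted p = 0.00278). With the mean of both probe sets the adjusted p was 0.178 at 24 h and 0.0956 at 48 h at 100 µM, so the calls against vehicle rest on the brighter probe set. The 48 h call was also lost without vehicle replicate 3 (limma adjusted p = 0.0893) or 100 µM replicate 5 (0.0685).

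**Figure D2:**
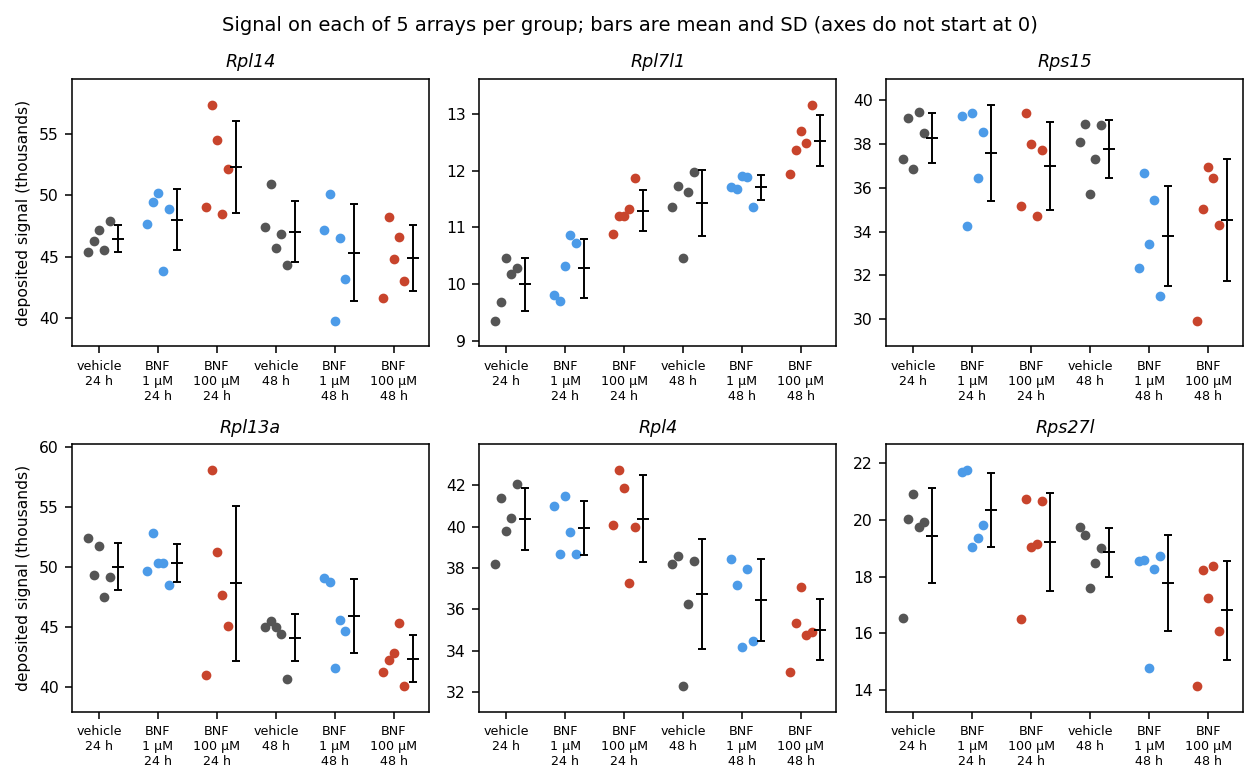
Deposited signal (y axis, scaled as labelled and not starting at 0) of 6 members on each of the 5 arrays of the 6 groups (x axis), with bars for mean and SD. Rpl14 and Rpl7l1 at 100 µM and 24 h lie above their vehicle arrays with no overlap, and Rpl13a in vehicle lies lower at 48 than at 24 h.

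In vehicle cells 1 member (Rpl7l1) was higher and 2 structural members were lower at 48 than at 24 h, where 17.2% of all genes passed, 8.64% higher and 8.6% lower. Rpl13a, a 60S protein that also acts outside the ribosome in translational silencing, read 52372, 49353, 51725, 47511 and 49190 at 24 h. At 48 h it read 44963, 45443, 45013, 44409 and 40658, below every 24 h array, a separation seen for 11.6% of all genes. It fell by 0.18 on the log2 scale (SE 0.06, limma adjusted p = 0.0383, n = 5 per group). Rpl4, which lines the exit tunnel of the 60S subunit, read 38192 to 42064 at 24 h and 32286 to 38603 at 48 h, with overlap, and fell by 0.14 (SE 0.05, limma adjusted p = 0.0449).

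The Rpl13a call was lost without vehicle replicate 1, 2, 3 or 5 at 24 h or 1, 4 or 5 at 48 h (limma adjusted p up to 0.106). The Rpl4 call was lost without vehicle replicate 2, 3, 4 or 5 at 24 h or 3 or 4 at 48 h (limma adjusted p up to 0.186). The median of all 48 members for 48 against 24 h in vehicle was -0.03, beside 0.005 over all genes. Of the 48, 5 had an unadjusted p under 0.05, where 27.7% of all genes did.

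The P stalk recruits elongation factors to the ribosome, and Rplp0 and Rpl12, at its base, were the measured members of that group. Rplp0, often used as a reference gene for normalization, read 52629 to 71097 in vehicle at 24 h, 53199 to 68202 at 1 µM and 54724 to 76245 at 100 µM. At 48 h it read 51045 to 71526, 47336 to 58130 and 50113 to 68257. The groups overlapped throughout. Its largest change against vehicle was -0.23 at 1 µM and 48 h (SE 0.10), which did not pass (limma adjusted p = 0.404), and its within-group SD of 0.17 log2 units was the highest of the 38 bright members. At 48 h Rplp0 was higher at 100 than at 1 µM by 0.20, which did not pass (limma adjusted p = 0.226). With quantile normalization that difference between doses passed (limma adjusted p = 0.0186). Rpl12 read 61367 to 66945, 61327 to 67340 and 57716 to 76023 at 24 h in the same order of groups, with log2 fold changes of 0.01 and 0.02. At 48 h it read 57078 to 66006, 54495 to 62086 and 51468 to 61418, with changes of -0.06 and -0.06.

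A free pool of some ribosomal proteins binds MDM2 and so stabilises p53, with Rpl5 and Rpl11, partners of 5S ribosomal RNA, as the main pair. Of the 6 measured genes of this group (Rpl5, Rpl11, Rpl23, Rpl26, Rps3 and Rps27l), 0 passed the test against vehicle at either dose. Of all genes, 4.3% (1 µM) and 21.1% (100 µM) passed at 24 h and 0.809% and 17.4% at 48 h. With quantile normalization Rpl23 and Rpl26 were called at 100 µM and 24 h, and Rpl23 at 100 µM and 48 h. Rpl5 was at 0.01, 0.04, -0.16 and -0.11 and Rpl11 at -0.01, 0.00, -0.12 and -0.09 (1 µM 24 h, 100 µM 24 h, 1 µM 48 h and 100 µM 48 h). Rps27l, a p53-responsive paralog of Rps27, read 17603 to 19754 in vehicle and 14149 to 18392 at 100 µM at 48 h. These groups overlapped, and the difference of -0.17 (SE 0.07) did not pass (limma adjusted p = 0.126). Mdm2, from the list of regulators described below, was called higher at 100 µM at both times. It read 6123 to 8076 in vehicle and 7714 to 9493 at 100 µM at 24 h. At 48 h it read 6973 to 7273 in vehicle and 7813 to 9110 at 100 µM.

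Among small subunit proteins, Rps15, which is needed for export of the precursor of the subunit from the nucleus, came nearest to a call against vehicle. It and the next 2 genes were chosen after their values were seen. At 48 h its log2 fold change was -0.16 at 1 µM (SE 0.05, limma adjusted p = 0.169) and -0.13 at 100 µM (SE 0.05, limma adjusted p = 0.0878). Rps6, the substrate of S6 kinase downstream of mTORC1, was at 0.00 and -0.15 at 100 µM at 24 and 48 h (limma adjusted p = 0.155 at 48 h). Rps24 was at -0.25 at 1 µM and 48 h (SE 0.10, limma adjusted p = 0.266).

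The other paralogs did not pass against vehicle. Rpl39l1 had a median signal of 168 in vehicle and 78.6 at 100 µM at 24 h, and its log2 fold change of -1.17 (SE 0.43) was just outside the threshold (limma adjusted p = 0.0509). At 5 arrays per group its signal ran from 142 to 316 in vehicle and from 39.6 to 206 at 100 µM, so the groups overlapped. Rps4y2 was at 0.17 at 1 µM and 0.16 at 100 µM at 24 h (SE 0.08, limma adjusted p = 0.273 and 0.194) and at -0.09 and -0.11 at 48 h. Rpl26l1 had log2 fold changes of 0.09, -0.07, -0.06 and 0.14 in the 4 comparisons with vehicle. Rpl3l, a paralog of Rpl3 known from striated muscle, was dim, with a mean signal of 58.2.

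Differences between the times in the effect of a dose did not pass for any member. Of the 48 members 0 passed the test of the difference at 1 µM, where 0.0914% of all genes did, and 0 at 100 µM, where 0.788% did. At an unadjusted p under 0.05 these counts were 1 and 2 members, against 9.28% and 11.6% of all genes. The medians of the differences were -0.09 and -0.08, beside -0.001 and -0.01 over all genes. All 38 bright members were below 0 in the difference at 100 µM, as were 7441 of all 14217 genes. The 38 share the level of each array, as described next, and are not independent.

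The bright members moved together from array to array. For each of the 38 the deviation of each array from its group mean was taken. Over the 30 arrays the median correlation between pairs of members was 0.85 (703 pairs, from 0.09 to 0.97), as a description of genes measured on the same arrays. The median within-group SD of the 38 was 0.10 log2 units, against 0.22 over all genes, and it was 0.05 once each array was centred on the median of the 38.

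Single arrays held the extremes of the shared level in some groups. Replicate 2 at 100 µM and 24 h was the highest of its group for 37 of the 38 members, and replicate 1 at 100 µM and 48 h the lowest for 36. These extremes were not particular to ribosomal protein genes. The same arrays were the highest and the lowest of their groups for each of the 10 hepatocyte markers as bright as the 38 (for Alb, 93834 and 60972). How far the 38 move with other bright genes over all arrays was not tested. In vehicle at 48 h replicate 3 was the lowest for 34 and replicate 2 the highest for 31. The median signal of the 38 was 53317 to 57865 in the vehicle arrays at 24 h, 54298 to 60234 at 1 µM and 53105 to 67132 at 100 µM. At 48 h it was 50606 to 58372 in vehicle, 47766 to 56595 at 1 µM and 45889 to 58303 at 100 µM, and the groups overlapped at both times. Without replicate 2 the member median at 100 µM and 24 h was -0.03 in place of 0.02. It was also just under 0 without vehicle replicate 1 or 3. Without replicate 1 that at 100 µM and 48 h was -0.02 in place of -0.06, and the median difference of the 100 µM effect between times -0.03 in place of -0.08. Without these arrays 1 member was called at each time (Rpl7l1), and 27 and 21 biogenesis genes (24 and 48 h).

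**Figure D3:**
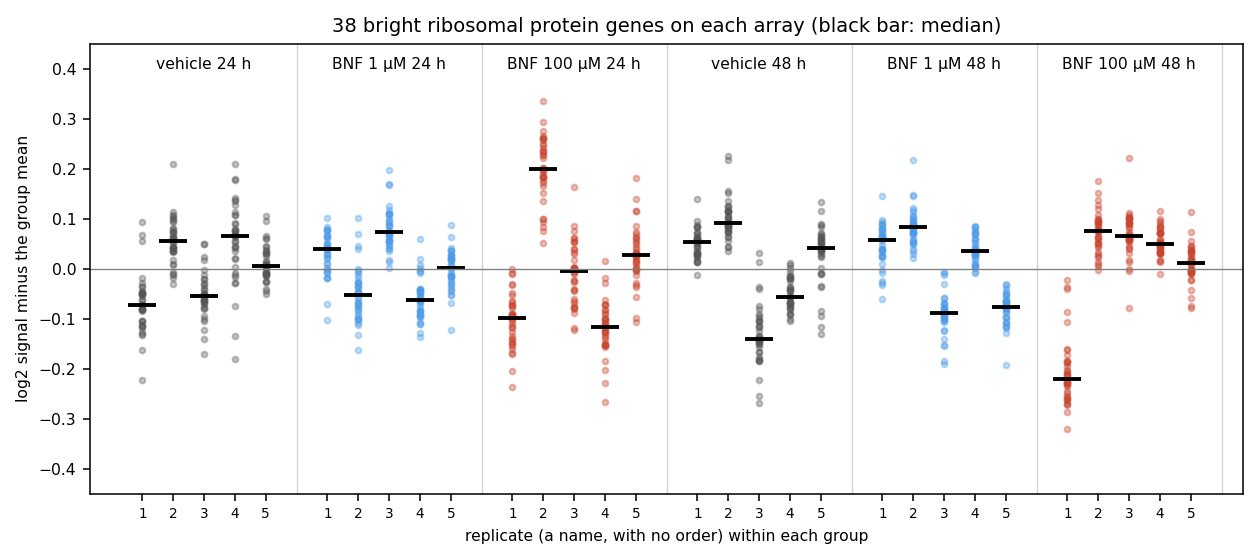
Log2 signal minus the group mean (y axis) of the 38 bright ribosomal protein genes (points) on each of the 30 arrays (x axis, by group), with the median as a black bar. The 38 genes of an array shift together, most at 100 µM in replicate 2 at 24 h (mean deviation 0.20) and in replicate 1 at 48 h (-0.21).

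Another 36 probe sets carried several symbols, at least 1 of them a ribosomal protein name, and are not members because no single gene can be named from them. They were fitted with all 31042 probe sets. None of the 36 passed in any of the 9 contrasts (0 calls in limma). Of all probe sets, 2.31% (1 µM) and 13.8% (100 µM) passed against vehicle at 24 h, and 0.251% and 10.5% at 48 h. Between doses 4.24% (24 h) and 8.21% (48 h) passed, and between the vehicle times 10.5%. In the differences between times 0.0354% (1 µM) and 0.441% (100 µM) passed. Shares of all probe sets at an unadjusted p under 0.05 were not taken. At an unadjusted p under 0.05 there were 3 at 1 µM and 48 h, 4 between the vehicle times and 1 in the difference of the 100 µM effect, and 0 in the remaining contrasts. Their medians against vehicle were -0.01 and 0.005 at 24 h (1 and 100 µM) and -0.09 and -0.06 at 48 h, beside those of the members above.

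The genes that build ribosomes gave other values at 100 µM. From a list of 65 ribosome biogenesis factors 64 were measured, and 28 (43.8%) rose at 100 µM at 24 h and 22 (34.4%) at 48 h, with 0 lower at either time. At 1 µM 3 rose at 24 h and 0 at 48 h, where 4.3% and 0.809% of all genes were called. The list medians were 0.05 and 0.18 at 24 h (1 and 100 µM) and 0.03 and 0.16 at 48 h. These counts stand beside 21.1% and 17.4% of all genes called at 100 µM, and 2 and 1 of the 48 ribosomal protein genes.

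Wdr12, part of the PeBoW complex that matures large subunit RNA, read 7315, 6108, 6635, 6447 and 6301 in vehicle at 24 h and 8156, 8877, 8991, 8804 and 8621 at 100 µM. The groups did not overlap, and it rose by 0.41 (SE 0.06, limma adjusted p = 4.19e-06), and by 0.37 at 48 h (limma adjusted p = 1.92e-05). Emg1, a methyltransferase of 18S ribosomal RNA, rose by 0.50 and 0.39 at 24 and 48 h, Ebna1bp2, a large subunit assembly factor, by 0.33 and 0.23, and Gar1 and Nhp2, core proteins of the H/ACA RNPs that guide pseudouridylation, by 0.44 and 0.40 at 24 h and by 0.28 and 0.35 at 48 h. All of these passed (limma, largest adjusted p = 0.00393). Nop56, of the box C/D RNPs that guide RNA methylation, was at 0.12 at 24 h (limma adjusted p = 0.170) and rose by 0.44 at 48 h (limma adjusted p = 2.21e-06).

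At 1 µM and 24 h the 3 called were Wdr12 (0.24), Ebna1bp2 (0.18) and Nop10 (0.18). That count was 7 without vehicle replicate 3 and 1 without 1 µM replicate 3 or 4, and between these without each of the other arrays. When arrays were centred on the median of the 38 bright ribosomal protein genes, a scaling added after the data were seen, 9 biogenesis genes were called at 100 µM and 24 h in place of 28, all of them higher, and 0 at 1 µM and 24 h in place of 3. In vehicle cells 15 biogenesis genes were higher and 2 lower at 48 than at 24 h, where 17.2% of all genes passed, 8.64% higher and 8.6% lower.

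**Figure D4:**
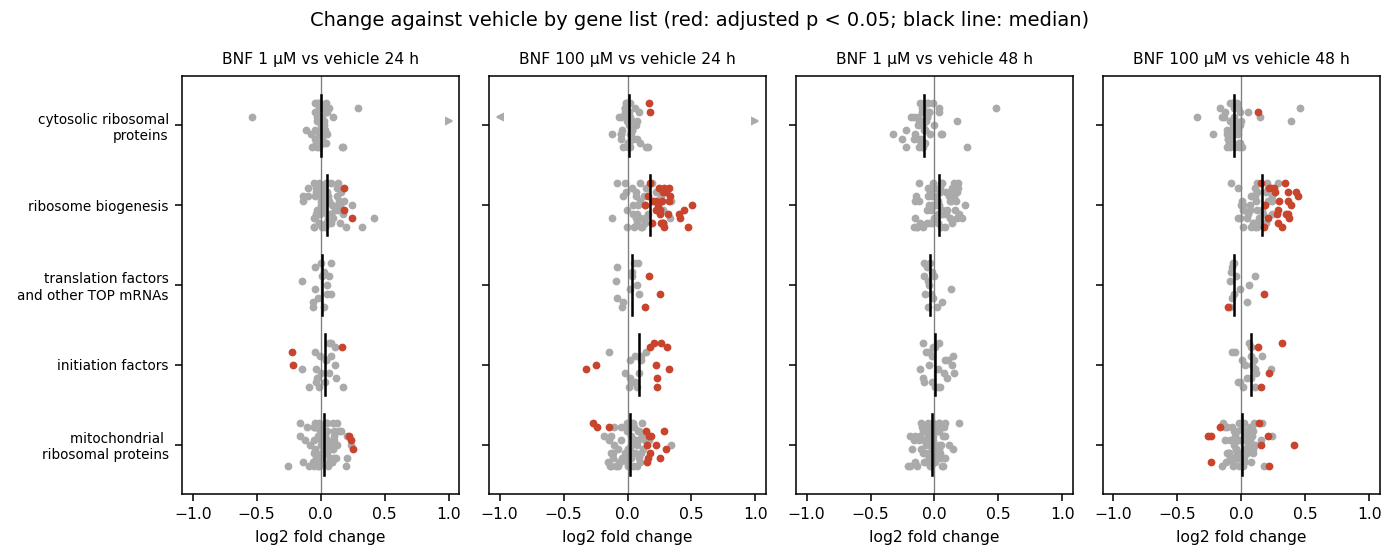
Log2 fold change against vehicle (x axis) of each gene (point) in 5 lists, with the list median as a black line, and red for an adjusted p under 0.05 (values beyond 1 are drawn as triangles at the edge). At 100 µM and 24 h 28 of 64 ribosome biogenesis genes are red, and 2 of 48 cytosolic ribosomal protein genes.

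Of 20 translation factors and other genes with TOP mRNAs on the list 15 were measured. At 100 µM 3 rose and 0 fell at 24 h (20% of the list, against 21.1% of all genes), and 1 rose and 1 fell at 48 h (13.3%, against 17.4%), and at 1 µM 0 were called at either time (1 and 0 genes at an unadjusted p under 0.05). In vehicle cells 1 was higher and 4 were lower at 48 than at 24 h (33.3%, against 17.2% of all genes). Eef1d, a subunit of the exchange factor of elongation factor 1A, rose by 0.25 (SE 0.04, limma adjusted p = 6.38e-05) and 0.17 (limma adjusted p = 0.00547) at 100 µM. Eef1b2, another subunit, rose by 0.17 at 24 h (limma adjusted p = 0.0129). The RNA-binding protein gene Hnrnpa1 rose by 0.14 at 24 h and fell by 0.11 at 48 h at 100 µM, and the difference between these effects passed (-0.24, limma adjusted p = 0.0102).

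Of 23 measured initiation factors (27 on the list), 8 rose and 2 fell at 100 µM at 24 h (43.5%, against 21.1% of all genes), and 4 rose and 0 fell at 48 h (17.4%, the share of all genes). At 1 µM 1 rose and 2 fell at 24 h and 0 were called at 48 h, with 3 at an unadjusted p under 0.05. Of all genes, 4.3% and 0.809% were called at 1 µM at 24 and 48 h. The cap-binding protein gene Eif4e rose by 0.17 at 1 µM (limma adjusted p = 0.0300) and 0.31 at 100 µM at 24 h (SE 0.05, limma adjusted p = 4.53e-06). Eif4g1, the scaffold it binds, fell by 0.22 at 1 µM and by 0.24 at 100 µM at 24 h. Eif6, which binds the 60S subunit and keeps it from joining the 40S, rose by 0.23 at 100 µM at 24 h and 0.15 at 48 h (limma adjusted p = 0.00154 and 0.0459).

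Mitochondrial ribosomal proteins, encoded in the nucleus for the separate ribosome of that organelle, were measured as 73 genes. At 100 µM 11 rose and 3 fell at 24 h (19.2%, against 21.1% of all genes) and 5 rose and 4 fell at 48 h (12.3%, against 17.4%). At 1 µM 3 rose at 24 h and 0 were called at 48 h, with 6 at an unadjusted p under 0.05. The shares of all genes called at 1 µM were 4.3% and 0.809%. Mrps18b rose by 0.29 at 100 µM at 24 h (limma adjusted p = 4.37e-05), and Mrps21 fell by 0.23 at 100 µM at 48 h (limma adjusted p = 0.00114).

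Among 28 measured regulators of ribosomal protein synthesis (30 on the list), 4 were higher and 3 lower at 100 µM at 24 h (25% of the list, against 21.1% of all genes). At 48 h 8 were higher and 2 lower (35.7%, against 17.4% of all genes). Sesn1, an inhibitor of mTORC1 signalling, had the largest change of the list at 100 µM at both times. Its signal was 4139, 3655, 2948, 3967 and 2765 in vehicle at 24 h, 2329 to 2496 at 1 µM and 879 to 1290 at 100 µM, with no overlap. It fell by 0.53 at 1 µM (limma adjusted p = 0.0250) and by 1.65 at 100 µM (SE 0.14, limma adjusted p = 1.95e-10), and at 48 h, from 1120 to 2399 in vehicle to 424 to 528 at 100 µM, by 1.79 (limma adjusted p = 2.61e-11).

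Tsc2, whose product restrains mTORC1, was at 0.15 at 100 µM at 24 h (limma adjusted p = 0.169) and rose by 0.61 at 48 h (limma adjusted p = 2.40e-07). Yy1, a transcription factor whose core motif is among those searched above, rose by 0.20 and 0.16 at 100 µM at 24 and 48 h (limma adjusted p = 0.000317 and 0.00570). Max was called higher at 100 µM at 24 h, with a mean signal of 7429 in vehicle and 8670 at 100 µM. Rps6ka3 was called higher at 100 µM at 48 h, with means of 777 and 1192.

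Several hepatocyte markers were lower at 100 µM and 48 h, where the ribosomal protein genes gave 1 call. Summed Kupffer cell and cholangiocyte marker signals lay below vehicle there, those of stellate cell, endothelial cell and lymphocyte markers overlapped it, and no sum passed after adjustment. Of 14 measured hepatocyte markers 0 rose and 9 fell at that dose and time, and 5 fell at 24 h, where 8.62% (48 h) and 10.4% (24 h) of all genes were called lower. The summed hepatocyte marker signal was 449690 to 550730 at 100 µM and 583240 to 695140 in vehicle at 48 h (exact permutation p = 0.00794, the smallest possible, adjusted p = 0.0556 over 28 comparisons). The summed signal of 12 Kupffer cell markers was 16110 to 17868 against 19620 to 21640, and that of 6 cholangiocyte markers 9386 to 10031 against 11839 to 13557, each with the same p. For stellate cell, endothelial cell and lymphocyte markers the exact permutation p at 100 µM and 48 h was 0.175, 0.794 and 0.167. At 100 µM and 24 h the summed hepatocyte marker signal was 582280 to 750510 against 677040 to 753580 in vehicle (exact permutation p = 0.0556, adjusted p = 0.156), and that of stellate cell markers 5929 to 7438 against 7333 to 10704 (exact permutation p = 0.0159, adjusted p = 0.0635). At 1 µM the cholangiocyte sum at 48 h was 11002 to 11568 against 11839 to 13557 (exact permutation p = 0.00794, adjusted p = 0.0556). At 1 µM and 24 h the stellate sum was 6301 to 7759 against 7333 to 10704, and the Kupffer sum 27330 to 29758 against 23374 to 27338 (exact permutation p = 0.0159, adjusted p = 0.0635 for both). Their part in the values of the ribosomal protein and biogenesis genes was not tested. Of the hepatocyte markers, 10 were as bright as the 38 ribosomal protein genes, and 6 of those 10 (Serpina1, Fga, Fgb, Fgg, Cps1 and Ass1) fell at 100 µM and 48 h.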

How the data were processed

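The deposited table of all 30 arrays holds linear signal intensity per probe set, which the authors made with MAS5 (the submitters' processing notes name no version). The 2% trimmed mean was 1500.54 to 1500.6 on every array, so arrays had been scaled before deposit, and a shift common to most genes is hidden by that scaling. How the authors corrected background was not given in the sources used here. Signals were taken to log2 with no constant. Of 31099 probe sets 57 controls were left out, and 20826 had 1 symbol, 436 several and 9780 none. A gene was read from its probe set of highest mean log2 signal. Of the members, 46 matched their RefSeq gene number.

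One limma model (limma 3.58.1, R 4.3.3) with a mean per group and a mean-variance trend used all arrays (residual degrees of freedom 24). Its 9 contrasts were adjusted by Benjamini-Hochberg over 14217 genes and called at 0.05. SE is that of the log2 fold change, and n is 5 arrays per group throughout. Precision is limited by the number of arrays. The fit was tested on simulated data with noise drawn independently for each gene and array. The shared movement of the bright members was not part of that test. Array medians and summed marker signals were compared by two-sided exact permutation tests. The members, lists and alternatives were chosen with earlier results of these data known. Named were up to 8 called members in each direction per contrast (5 per difference between times), all paralogs, the P stalk, and up to 4 called genes per list with the smallest adjusted p. No pair of arrays was identical (0), and 0 columns belonged to other samples.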

Additional observations from a re-analysis of the deposited data

Results flagged for a closer look

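In groups of 5 arrays, 11 named members and the median of the bright members were searched for an array that stood apart from the others, by the gap criterion of Dixon in 72 combinations of measure and group. Chance gives about 1 in 20 such results, and 5 were found, none of them for the median of the bright members. Rpl12 read 51468 at 100 µM and 48 h in replicate 1, below 59008 to 61418 in the others, and that array was the lowest of its group for 36 of the 38 bright members. Rpl13a read 40658 in vehicle at 48 h in replicate 5, below 44409 to 45443. Rps27l read 16559 in vehicle at 24 h in replicate 1, below 19773 to 20937, and 14780 at 1 µM and 48 h in replicate 3, below 18264 to 18726. The dim gene Rpl3l read 172 at 100 µM and 48 h in replicate 3, above 18.5 to 61.5.

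The 100 µM effect differed between the times for 2 of the named genes outside the members. For Hnrnpa1 the effect at 48 h was lower than that at 24 h by -0.24 (limma adjusted p = 0.0102), and for Tsc2 it was higher by 0.46 (limma adjusted p = 0.0258).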

How the results depend on the processing

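No paired analysis was possible because the replicate numbers follow sample order and are only names. Of 2074 recomputed log2 fold changes of named members, 2021 kept their side of the threshold, 44 were no longer past it, 9 were newly past it, and 0 called values changed sign. Most of the 2074 were uncalled at first, and the 44 losses fell on the few called values. Each call had 10 fits without an array and 9 other settings. At 100 µM against vehicle, the Rpl14 call was lost in 5 and 1 of these at 24 h. The Rpl7l1 call was lost in 0 and 2 at 24 h, and in 2 and 4 at 48 h. Between doses at 24 h it was lost in 6 and 3. Between the vehicle times the losses were 7 and 4 for Rpl13a, 6 and 4 for Rpl4, and 0 and 0 for Rpl7l1. Members called at 100 µM and 24 h numbered 7 with quantile normalization (6 higher and 1 lower, namely Rpl14, Rpl23, Rpl26, Rpl35a, Rpl39l1, Rpl7l1 and Rps3a), 1 with the mean of all probe sets of a gene and 1 with centring on the bright members (Rpl19, lower), in place of 2, and 1 to 3 when an array was left out (1 without vehicle replicate 2 or 4 or 100 µM replicate 2 or 3). At 100 µM and 48 h they were 2 with quantile normalization (Rpl23 and Rpl35a) and 0 with only the groups compared in the fit, in place of 1 (Rpl7l1), and the 1 call was Rpsa with the mean of probe sets and Rps6 with centring on the bright members, both lower. They were 0 to 1 without an array. At 1 µM and 24 h they were 0 to 1 without an array (1 without vehicle replicate 1). Between doses at 24 h they were 0 with the mean of probe sets, with centring on the bright members and with only the groups compared, in place of 1, and 0 to 1 without an array. Between doses at 48 h they were 3 with quantile normalization (Rpl35a, Rplp0 and Rps24) and 1 (Rpl7l1) with median centring, with centring on non-members and with the mean of probe sets, in place of 0. Between the vehicle times they were 1 with median centring, with centring on non-members and with centring on the bright members, in place of 3, and 1 to 3 without an array (1 without vehicle replicate 2, 3 or 5 at 24 h or 4 at 48 h). The member median at 1 µM and 48 h was 0.0113 with quantile normalization and -0.13 with median centring, in place of -0.09. With centring on the bright members the medians of the differences between times were 0.0134 and 0.0142 (1 and 100 µM) in place of -0.09 and -0.08. That centring sets the median of 38 of the 48 members to the same level on every array. A member median near 0 therefore follows from it and is no test of the shift. Biogenesis genes called at 1 µM and 24 h were 1 with median centring, with centring on non-members and with only the groups compared, 5 among genes at or above the median signal and 0 with centring on the bright members, in place of 3, and 1 to 7 without an array. At 100 µM and 24 h they were 9 with centring on the bright members in place of 28. That scaling moved the median of all genes at 100 µM and 24 h from 0.04 to -0.02, called 1931 genes in place of 3000, and 26.5% of its calls were higher in place of 50.8%. It moved the median of all genes by 0.10 for the difference of the 1 µM effect between times. At 1 µM and 48 h it called 19 genes in place of 115, and 46 to 153 were called without an array. The causes were not tested. Median centring moved the share of calls that were higher from 44.3% to 32.6% at 1 µM and 24 h, from 35.7% to 16.2% at 1 µM and 48 h, and from 47.1% to 71.7% between doses at 48 h. Signal near background limits the 4 dim structural members, Rpl39l1 and Rpl3l. Centring on the bright members and the biogenesis counts under the alternatives were added after the data were seen.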
